A study of Mus musculus with 8 samples.

Results

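The genes described here are 40 antioxidant genes and targets of the transcription factor NRF2, measured in natural killer (NK) cells of mouse spleen. They were listed by name as the NRF2 regulators and the genes of glutathione, thioredoxin, peroxiredoxin and NADPH metabolism, out of 54838 gene identifiers in the count files. All 40 were found in the files, and 39 had enough reads to be among the 13903 genes tested; *Cbr3*, a carbonyl reductase gene, had no read in any library. RNA came from 4 libraries labelled hNK, from wild-type FVB/n mice, and 4 labelled teNK, from MMTV-PyMT mice, described in the series as bearing tumours. In this model the mouse mammary tumour virus promoter drives polyoma middle T antigen, mainly in mammary epithelium and not in NK cells. In both groups the cells were sorted from spleen as CD45+, CD49b+ and CD3-, and were held for 12 to 16 h in medium with cytokines before RNA was taken. The sources used here do not give the age of the mice, the background strain of the transgenic mice, the cytokines or the number of animals per library. Since no label ties a replicate to its own animal, p-values reflect only the spread between these libraries, and that spread may be technical.

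NRF2, the product of *Nfe2l2*, is held in the cytoplasm and marked for degradation by KEAP1. Oxidants and electrophiles modify KEAP1, NRF2 then enters the nucleus, pairs with a small MAF protein and binds antioxidant response elements near genes for glutathione and thioredoxin metabolism, NADPH supply, quinone reduction and haem breakdown. Glutathione and thioredoxin are the main thiol systems that reduce peroxides and protein disulfides, and both draw their electrons from NADPH.

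The hNK libraries held 5202131 to 12419324 reads on genes and the teNK libraries 13111043 to 16209895, so values of low genes carry more counting error in hNK. Repeat lanes of a library are mentioned for teNK alone, so lane layout cannot be told apart from group. The sort was checked against 10 NK and sort genes, which were all expressed in both groups: *Ncr1* (NKp46) measured 209 ± 35.9 CPM in hNK against 1013 ± 65.05 CPM in teNK, and *Itga2* (CD49b) 422 ± 16.3 CPM in hNK against 628 ± 10.4 CPM in teNK. Of the 10 NK and sort genes, 9 were called higher in teNK and 1 lower, where 26.4% and 25.6% of all tested genes were. The 1 called lower was *Eomes*, at 786 ± 38.2 CPM in hNK against 639 ± 29.2 CPM in teNK. The summed level of 7 T cell genes was 23.4 to 46.1 CPM in hNK and 29.2 to 39.4 CPM in teNK. Of these, *Cd3d* was called 2.32-fold higher in teNK and *Cd3g* was not called (20.2 ± 8.46 CPM in hNK against 23.01 ± 2.95 CPM in teNK). Other lists differed in level. The summed level of 12 platelet genes was 18.5 to 43.2 CPM in hNK and 307 to 519 CPM in teNK, that of 8 B cell genes 85.4 to 123 CPM in hNK and 125 to 151 CPM in teNK, that of 10 erythroid genes 0 to 0.542 CPM in hNK and 2.81 to 12 CPM in teNK and that of 13 macrophage and monocyte genes 4.05 to 5.99 CPM in hNK and 10.7 to 14.3 CPM in teNK. Most of the B cell sum was *Ighm*, which was not called (95.8 CPM in hNK against 96.5 CPM in teNK). The other 7 of the 8 B cell genes were called higher in teNK, by 6.55-fold (*Cd79b*) to 120-fold (*Cr2*). In the macrophage and monocyte list, *Cd68* was not called (4.34 CPM in hNK against 4.52 CPM in teNK) and *Lyz2* was 13.1-fold higher in teNK. Of the neutrophil list, 9 of 10 genes had no read in hNK and 3 of 10 none in teNK, including *Ly6g* in both. Apart from the T cell list, these lists moved with the groups. The part of any list in the results was not tested except where a value is given below. CPM are reads per 1000000 reads on tested genes after scaling between libraries, and means are given ± SD over 4 libraries. Calls are at an adjusted p below 0.05 (edgeR quasi-likelihood test, Benjamini-Hochberg over all tested genes).

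Transcripts of most of the antioxidant genes were less abundant in NK cells of tumour-bearing mice. Of the 39 tested members, 26 fell in teNK, 7 rose and 6 were not called. Over all 13903 tested genes, 25.6% were called lower and 26.4% higher, 51.9% in all. The members' median log2 fold change was -0.48, where the median over all tested genes was -0.02. A fall of at least 2-fold was called for 12 members and a rise of at least 2-fold for none, against 5.8% and 8.28% of all tested genes. The members were chosen with earlier results of these data known, so these shares are a description with no test. *Nqo1*, *Osgin1* and *Me1* passed the filter on low counts through hNK alone and had to differ; of the 36 members above it in all 8 libraries, 23 fell, 9 of them by at least 2-fold, and 7 rose. In 26 members every teNK library was below every hNK library, and in 6 every one was above; over all tested genes these shares were 22.4% and 24.1%, 46.5% in all. In bulk RNA, fewer cells that make a transcript and less of it per cell cannot be told apart.

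**Figure D1:**
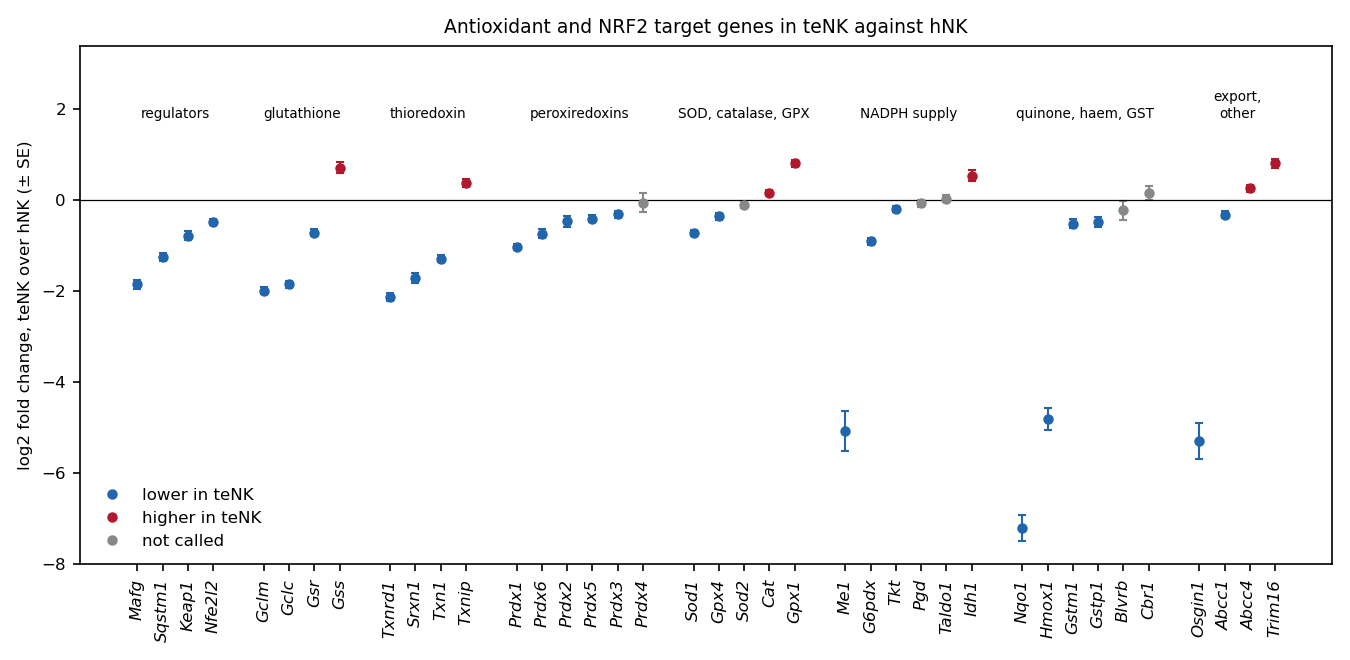
Log2 fold change of teNK over hNK for the 39 tested members, ordered by role on the horizontal axis; points are edgeR estimates from 4 libraries per group, bars are standard errors, and colour gives the call. The 4 members with the largest falls (*Nqo1*, *Osgin1*, *Me1* and *Hmox1*) lie below -4, the 4 regulators lie below 0, and the 7 members that rose lie between 0.17 and 0.81.

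The 4 regulators on the member list all fell, where 25.6% of all tested genes were called lower. Other regulators of the pathway, given below, moved both ways. *Nfe2l2* (ENSMUSG00000015839, chromosome 2, 75675513 to 75704641, minus strand), which encodes NRF2, measured 184, 166, 162 and 150.3 CPM in hNK replicates 1 to 4 and 109, 115, 128 and 125 CPM in teNK replicates 1 to 4. The groups did not overlap, but the gap was small: the log2 fold change was -0.48 ± 0.07 (SE, adjusted p = 3.51e-05), a 1.39-fold fall. *Keap1*, the gene of its inhibitor, fell from 42.8 ± 2.92 to 25.02 ± 3.00 CPM, 1.72-fold. *Mafg* (ENSMUSG00000051510, chromosome 11, 120625117 to 120633600, minus strand), a small MAF partner of NRF2 and itself one of its targets, measured 74.2, 56.7, 55.4 and 58.7 CPM in hNK replicates 1 to 4 and 19.1, 17.1, 15.99 and 16.1 CPM in teNK replicates 1 to 4. All teNK libraries lay far under the hNK range, a log2 fold change of -1.85 ± 0.10 (adjusted p = 2.16e-10). Its exons overlap those of *Sirt7* on the same strand, where reads can be ambiguous, and *Sirt7* moved the other way, with 73.2 CPM in hNK and 93.2 CPM in teNK. *Sqstm1* (ENSMUSG00000015837, chromosome 11, 50199366 to 50210827, minus strand) encodes p62, an autophagy receptor that binds KEAP1 and is induced by NRF2. It was among the most abundant members, at 513, 410.5, 376 and 397 CPM in hNK replicates 1 to 4 and 201, 164, 179 and 174 CPM in teNK replicates 1 to 4, and fell 2.37-fold (log2 fold change -1.24 ± 0.09, adjusted p = 9.56e-09).

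The largest fall was that of *Nqo1* (ENSMUSG00000003849, chromosome 8, 107388225 to 107403206, minus strand), the NAD(P)H quinone reductase gene that is a standard readout of NRF2 and also a target of the aryl hydrocarbon receptor. It measured 31.2, 17.7, 23.1 and 28.9 CPM in hNK replicates 1 to 4 and 0.132, 0.127, 0.161 and 0.229 CPM in teNK replicates 1 to 4. Those teNK values rest on 2, 2, 2 and 3 reads per library, against 375, 223, 140 and 160 in hNK, so the transcript was at or near the limit of detection in every teNK library. *Nqo1* passed the filter on low counts through hNK alone, so its direction was set by the filter and no p-value is given. Pooled over libraries and scaled for depth, the transcript was 156 (95% interval 81.6 to 341) times more abundant in hNK. The interval is an exact Clopper-Pearson interval and covers counting error only, as do those below. *Nqo2*, the related quinone reductase gene outside the 40, moved the opposite way and rose from 24.4 ± 1.59 to 60.5 ± 4.63 CPM (adjusted p = 9.56e-10).

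*Hmox1* (ENSMUSG00000005413, chromosome 8, 75093621 to 75100589, plus strand), which encodes the inducible haem oxygenase that degrades haem to biliverdin, iron and carbon monoxide, measured 65.7, 33.2, 34.6 and 52.2 CPM in hNK replicates 1 to 4 and 1.65, 1.52, 1.28 and 2.14 CPM in teNK replicates 1 to 4. The hNK libraries were themselves uneven, with replicates 1 and 4 above replicates 2 and 3, but the lowest of them was many times the highest teNK value. The log2 fold change was -4.81 ± 0.24 (adjusted p = 8.11e-11), a 28.1-fold fall. Red pulp macrophages of the spleen also express *Hmox1*. Of the 13 macrophage and monocyte genes, 6 (*C1qa*, *C1qb*, *C1qc*, *Cd5l*, *Marco* and *Vcam1*) had no read in hNK, and *Adgre1*, *Spic*, *Cd14* and *Mrc1* had 1 read each. *Csf1r* had 3 reads and *Lyz2* 19, while *Cd68* was at 4.34 ± 0.735 CPM in hNK against 4.52 ± 0.460 CPM in teNK. The part of such cells in the level of *Hmox1* was not tested. *Blvrb*, the biliverdin reductase B gene, was scarce and not called, with 2.67 ± 0.458 CPM in hNK against 2.35 ± 0.338 CPM in teNK (adjusted p = 0.406). *Osgin1* (ENSMUSG00000074063, chromosome 8, 119434124 to 119446256, plus strand), an oxidative stress-induced growth inhibitor gene, measured 26.4, 22.6, 13.7 and 11.02 CPM in hNK replicates 1 to 4 and 0.987, 0.0635, 0.723 and 0.153 CPM in teNK replicates 1 to 4. It had 747 reads in all in hNK and 27 in teNK, most of the latter in teNK replicates 1 and 3. Its log2 fold change was -5.29 ± 0.40, and -5.98 without teNK replicate 1. *Osgin1* too passed the filter on low counts through hNK alone, so no p-value is given.

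**Figure D2:**
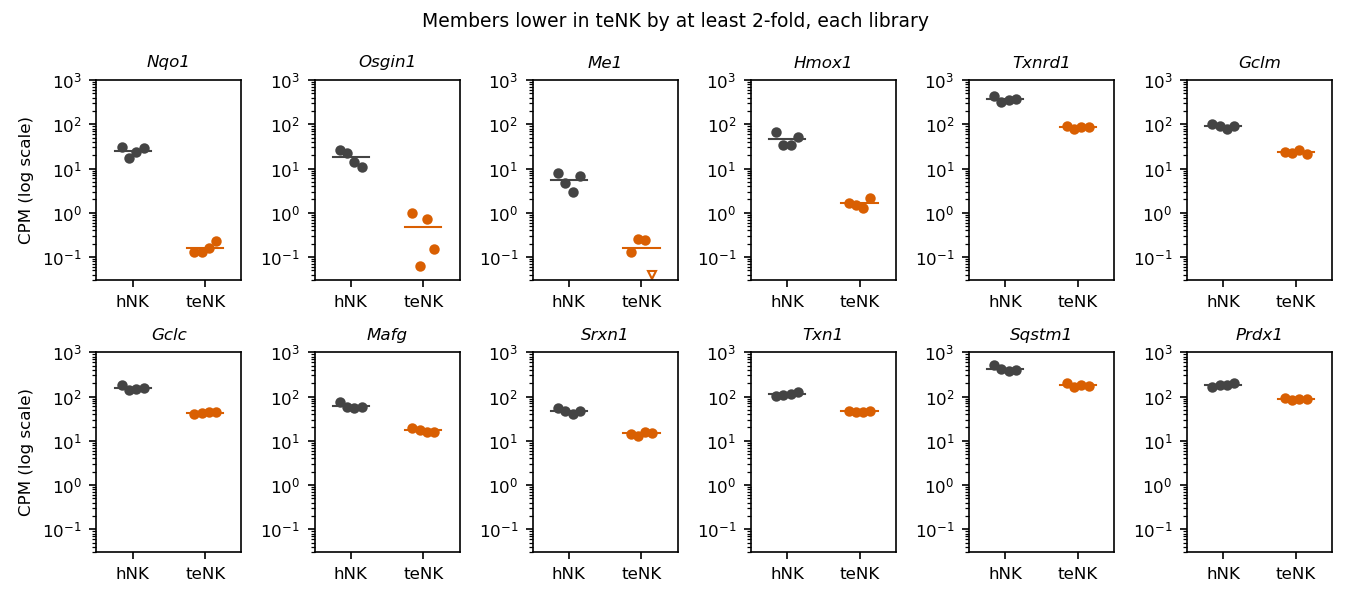
CPM on a log scale (vertical axes) in each library for the 12 members called lower in teNK by at least 2-fold; horizontal lines are means of 4 libraries and the open triangle marks a library with no read, drawn at the bottom of the axis. No hNK point lies as low as any teNK point in these panels, and the 4 largest falls end under 3 CPM in teNK.

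Both subunits of the enzyme that limits glutathione synthesis fell by similar amounts. *Gclc* (ENSMUSG00000032350, chromosome 9, 77754535 to 77794485, plus strand), the catalytic subunit of glutamate-cysteine ligase, measured 181, 141, 146 and 155 CPM in hNK replicates 1 to 4 and 41.3, 42.8, 43.8 and 45.5 CPM in teNK replicates 1 to 4. *Gclm* (ENSMUSG00000028124, chromosome 3, 122245557 to 122270732, plus strand), its modifier subunit, measured 99.9, 90.6, 80.2 and 93.4 CPM in hNK replicates 1 to 4 and 23.2, 22.4, 25.6 and 21.1 CPM in teNK replicates 1 to 4. Within each gene the 4 teNK libraries lay close together and far below hNK: the log2 fold change was -1.85 ± 0.08 for *Gclc* (adjusted p = 1.00e-11) and -1.99 ± 0.08 for *Gclm* (adjusted p = 7.43e-12). The ratio of their levels per kilobase of exon, *Gclc* over *Gclm*, was 2.86 ± 0.211 over hNK libraries and 3.16 ± 0.333 over teNK libraries. *Gclm* exons hold an annotated processed pseudogene on the same strand, *Gm6061*, with 93 reads in hNK and 74 in teNK, so some *Gclm* reads may have been ambiguous. Parts of the *Gclm* sequence also match 15 genes elsewhere, of which *Ppia* has most reads and was not called (log2 fold change -0.07). *Gsr*, glutathione reductase, which regenerates glutathione with NADPH, fell from 65.7 ± 3.78 to 39.99 ± 2.19 CPM (log2 fold change -0.71 ± 0.07, adjusted p = 2.90e-07). *Gss*, which encodes the synthetase of the second step, went the other way and rose from 7.24 ± 0.358 to 11.9 ± 1.31 CPM (1.64-fold, adjusted p = 0.000195), at a far lower level per length (2.01 ± 0.222 CPM per kilobase in teNK, against 11.5 ± 0.477 for *Gclc*). Its exons overlap *Acss2* on the opposite strand, which was also higher in teNK (log2 fold change 0.49), and the strand setting of the counting was not given in the sources used here.

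In the thioredoxin system the reductase fell most. *Txnrd1* (ENSMUSG00000020250, chromosome 10, 82833951 to 82897712, plus strand), the cytosolic thioredoxin reductase gene, measured 432, 323, 346 and 377 CPM in hNK replicates 1 to 4 and 89.9, 76.6, 87 and 85.5 CPM in teNK replicates 1 to 4. Every teNK library held less than the lowest hNK library by a wide margin, and the fall was 4.37-fold (log2 fold change -2.13 ± 0.09, adjusted p = 6.19e-12). Its substrate gene *Txn1* (ENSMUSG00000028367, chromosome 4, 57943373 to 57956411, minus strand), thioredoxin, measured 104, 107, 113 and 124 CPM in hNK replicates 1 to 4 and 47.1, 43.9, 45.8 and 46.8 CPM in teNK replicates 1 to 4, a log2 fold change of -1.28 ± 0.07 (adjusted p = 1.53e-10). *Srxn1* (ENSMUSG00000032802, chromosome 2, 152105516 to 152111376, plus strand), sulfiredoxin, which repairs over-oxidised peroxiredoxins, measured 56.4, 45.98, 39.8 and 47.1 CPM in hNK replicates 1 to 4 and 14.3, 13.1, 15.7 and 15.4 CPM in teNK replicates 1 to 4 and fell 3.27-fold (log2 fold change -1.71 ± 0.10, adjusted p = 9.05e-10). *Txnip* (ENSMUSG00000038393, chromosome 3, 96557957 to 96561883, plus strand), the inhibitor that binds thioredoxin and whose transcription follows glucose supply, measured 375, 475, 434 and 349.8 CPM in hNK replicates 1 to 4 and 529, 468, 572 and 548 CPM in teNK replicates 1 to 4. These ranges overlapped, since teNK replicate 2 fell below hNK replicate 2, and the rise was 1.29-fold (log2 fold change 0.37 ± 0.09, adjusted p = 0.00259). The ratio of *Txnip* to *Txn1*, each per kilobase, was 0.946 to 1.498 across hNK libraries and 3.59 to 4.20 across teNK libraries.

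Of the 6 peroxiredoxin genes, whose products reduce hydrogen peroxide, 5 fell and none rose. Over all tested genes 25.6% were called lower and 26.4% higher. *Prdx1* (ENSMUSG00000028691, chromosome 4, 116685544 to 116700822, plus strand), a cytosolic peroxiredoxin and known NRF2 target, measured 163, 179, 181 and 202 CPM in hNK replicates 1 to 4 and 92.01, 85.3, 89.8 and 89.8 CPM in teNK replicates 1 to 4. Per length it was the most abundant of the family in hNK (59.6 ± 5.21 CPM per kilobase), while in teNK it (29.3 ± 0.921) and *Prdx3* (27.99 ± 1.64) differed by less than the SD of *Prdx3*. The groups were far apart, and it fell 2.03-fold (log2 fold change -1.02 ± 0.07, adjusted p = 2.19e-09). Its near copy *Gm21399*, at another locus, had 601 reads in hNK and 497 in teNK and also fell, by 0.92 on the log2 scale, so reads of this pair cannot be fully separated. *Prdx6*, which also has phospholipase activity, fell from 123 ± 8.57 to 74.2 ± 11.5 CPM (1.66-fold, adjusted p = 4.71e-06). The falls of the mitochondrial *Prdx3* (1.24-fold) and of *Prdx5* (1.32-fold), found in mitochondria and peroxisomes, were smaller. *Prdx2* fell from 16.2 ± 1.89 to 11.6 ± 0.902 CPM (adjusted p = 0.00297); its exons overlap *Junb* on the opposite strand, which rose from 108 to 707 CPM. *Prdx4*, the peroxiredoxin of the endoplasmic reticulum, was at 3.05 ± 0.442 CPM in hNK against 2.90 ± 0.555 CPM in teNK and not called (adjusted p = 0.849).

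Superoxide dismutases, catalase and glutathione peroxidases were split. *Sod1*, the cytosolic superoxide dismutase gene, measured 138, 127, 112 and 129.5 CPM in hNK replicates 1 to 4 and 82.1, 73.1, 76.5 and 76.9 CPM in teNK replicates 1 to 4, with all teNK values under all hNK values, and fell 1.65-fold (log2 fold change -0.72 ± 0.07, adjusted p = 2.26e-07). Its near copy *Gm8566*, with 123 reads in hNK and 54 in teNK, fell too. *Sod2*, the mitochondrial enzyme gene, overlapped between groups at 51.05 ± 3.51 CPM in hNK against 47.7 ± 4.92 CPM in teNK and was not called (log2 fold change -0.10 ± 0.08, adjusted p = 0.339). Parts of its sequence match 15 genes elsewhere, of which *Ankrd44* has most reads and rose (log2 fold change 0.46), so the count of *Sod2* is uncertain. *Gpx4*, which reduces lipid peroxides and guards against ferroptosis, fell from 48.9 ± 2.89 to 38.5 ± 2.52 CPM (1.28-fold, adjusted p = 0.000809); its processed copy *Gpx4-ps2* held 779 and 887 reads in hNK and teNK and was lower by a like amount (log2 fold change -0.41). *Gpx1* (ENSMUSG00000063856, chromosome 9, 108338903 to 108340343, plus strand), the abundant cytosolic glutathione peroxidase, measured 28.8, 30.02, 34.8 and 30.2 CPM in hNK replicates 1 to 4 and 53.8, 49.97, 55.6 and 56.2 CPM in teNK replicates 1 to 4. Its groups were well separated in the direction opposite to most members, a rise of 1.752-fold (log2 fold change 0.81 ± 0.08, adjusted p = 2.16e-07). Platelets also express *Gpx1*, and the platelet list was higher in the same teNK libraries; its part in this rise was not tested. *Cat*, catalase, was 83.2 ± 3.54 CPM in hNK against 93.4 ± 3.65 CPM in teNK. Its log2 fold change of 0.17 ± 0.06 passed narrowly (adjusted p = 0.0304) and was lost in 9 of 19 alternative analyses, among them those without hNK replicate 1 (adjusted p = 0.0569), hNK replicate 4 (0.0771), teNK replicate 3 (0.0877) and teNK replicate 4 (0.0643). Over all 19 its adjusted p ranged from 0.0245 to 1. Red cells are rich in catalase and glutathione peroxidase, and 6 of 10 erythroid genes had no read in hNK and 1 of 10 in teNK; their part in the rises of *Gpx1* and *Cat* was not tested.

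Genes that supply NADPH did not move as a block. *Me1* (ENSMUSG00000032418, chromosome 9, 86581371 to 86695953, minus strand), the cytosolic malic enzyme and an NRF2 target, measured 8.06, 4.68, 2.97 and 6.68 CPM in hNK replicates 1 to 4 and 0.132, 0.254, 0.241 and 0 CPM in teNK replicates 1 to 4. Its teNK libraries held 2, 4, 3 and 0 reads, and the pooled ratio was 36.5 (95% interval 18.9 to 81.05) in favour of hNK. *Me1* also passed the filter on low counts through hNK alone, so no p-value is given. A near copy, *Gm7049*, had 26 reads in hNK and 1 in teNK. *G6pdx* (ENSMUSG00000031400, chromosome X, 74409483 to 74429194, minus strand), which catalyses the first step of the pentose phosphate pathway, measured 89.6, 79.5, 99.8 and 94.5 CPM in hNK replicates 1 to 4 and 45.8, 46.7, 47.5 and 53.9 CPM in teNK replicates 1 to 4; the groups did not overlap and the fall was 1.87-fold (log2 fold change -0.90 ± 0.08, adjusted p = 7.65e-08). The next dehydrogenase of that pathway, *Pgd*, was not called at 43.7 ± 4.23 CPM in hNK against 41.5 ± 1.82 CPM in teNK (adjusted p = 0.487). In its non-oxidative arm *Tkt*, transketolase, fell by 0.20 on the log2 scale (adjusted p = 0.027), which was lost without hNK replicate 3 (0.0691) and without teNK replicate 2 (0.106), and *Taldo1*, transaldolase, was not called at 60.4 ± 3.29 CPM in hNK against 61.95 ± 5.32 CPM in teNK (adjusted p = 0.711). *Idh1*, the cytosolic isocitrate dehydrogenase, rose from 8.84 ± 1.03 to 12.7 ± 0.844 CPM (1.45-fold, adjusted p = 0.00161).

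Among genes of conjugation, carbonyl reduction and export, changes were small. *Gstp1* and *Gstm1*, glutathione S-transferases, fell 1.39-fold and 1.43-fold, to 15.3 ± 1.94 and 48.9 ± 3.50 CPM. The neighbouring gene *Gstp2* had 5 reads in hNK and 3 in teNK, and the copy *Gstp-ps* 256 and 297, so the count of *Gstp1* is uncertain. *Cbr1*, a carbonyl reductase, was not called at 5.29 ± 0.474 CPM in hNK against 5.81 ± 0.616 CPM in teNK (adjusted p = 0.441). *Abcc1* (MRP1), which exports glutathione conjugates, fell 1.24-fold (adjusted p = 0.001), while *Abcc4* (MRP4) rose 1.20-fold (adjusted p = 0.0103), a call that was lost in the libraries thinned to equal depth (adjusted p = 0.179) and without scaling factors (0.188). *Trim16* (ENSMUSG00000047821, chromosome 11, 62820231 to 62850808, plus strand), a ubiquitin ligase of the NRF2 and p62 pathway, measured 15.2, 18.7, 16.8 and 15.2 CPM in hNK replicates 1 to 4 and 30.4, 29.1, 30.04 and 26.9 CPM in teNK replicates 1 to 4. It showed the largest rise of the members, 1.755-fold with no overlap (log2 fold change 0.81 ± 0.09, adjusted p = 1.95e-06). Part of its exons is shared with *Fbxw10* on the same strand, which rose as well (log2 fold change 1.39).

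**Figure D3:**
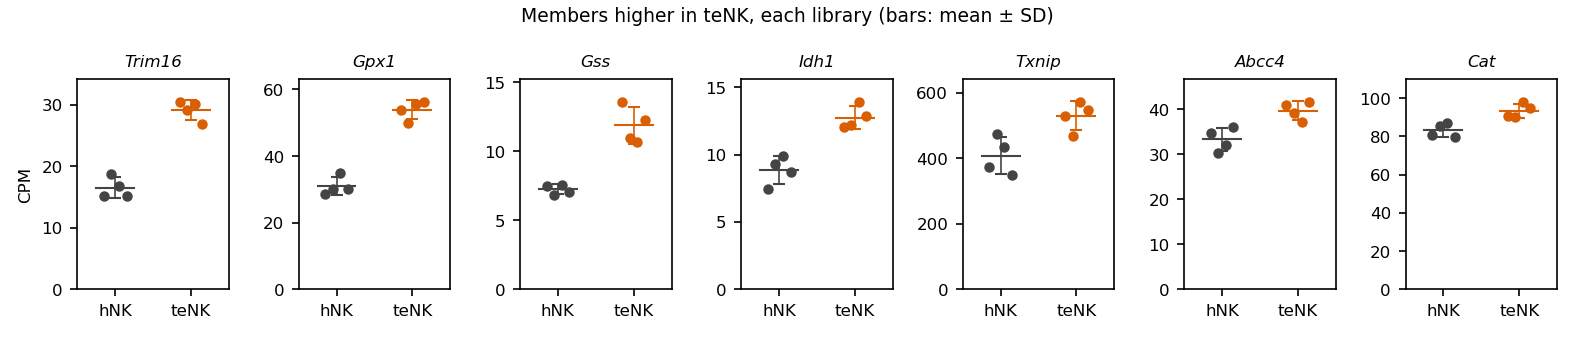
CPM (vertical axes, from 0) in each library for the 7 members called higher in teNK, ordered by fold change; lines and bars are the mean ± SD of 4 libraries. The groups are separate in every panel but *Txnip*, and no mean is 2 times the other.

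**Figure D4:**
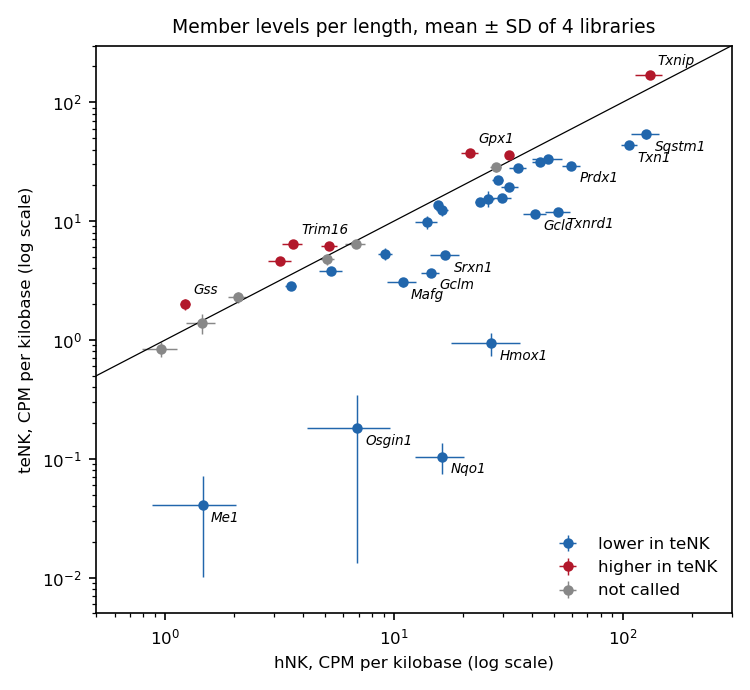
Mean level per kilobase of exon in hNK (horizontal) and teNK (vertical), both on log scales, for the 39 tested members; bars are SD of 4 libraries, the diagonal marks equal levels and colour gives the call. Below the diagonal lie 18 members by less than 2-fold and 12 by 2-fold or more, with *Nqo1*, *Hmox1*, *Osgin1* and *Me1* furthest from it, and 9 lie above it.

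Members that fell were found at high and low levels. In hNK the 3 highest members per kilobase were *Txnip* (131 ± 18.1 CPM per kilobase), *Sqstm1* (126 ± 18.2) and *Txn1* (107 ± 8.60), of which the first 2 differed by less than their SD, followed by *Prdx1* (59.6 ± 5.21), *Txnrd1* (52.2 ± 6.67), *Gstm1* and *Nfe2l2*. In teNK *Txnip* stood alone at the top (169.5 ± 14.2), then came *Sqstm1* (53.5 ± 4.72) and *Txn1* (43.7 ± 1.39), and *Gpx1* (37.4 ± 1.96) and *Cat* (35.8 ± 1.40) took the next places and differed by less than the SD of *Gpx1*, with *Prdx1* at 29.3 ± 0.921 and *Txnrd1* at 11.96 ± 0.811. Members with similar levels in hNK parted in teNK: *Hmox1* and *Taldo1* had 26.5 ± 8.84 and 27.8 ± 1.52 CPM per kilobase in hNK, and 0.942 ± 0.206 and 28.5 ± 2.45 in teNK.

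The core of the antioxidant response element was searched in the promoters, because the members that fell most are textbook NRF2 targets. The letters were TGACNNNGC on both strands, in windows from 250 bases before to 50 after each start (RefSeq, GRCm38.p6). RefSeq windows were matched by symbol for 34 members, and each of them was scanned over all of its starts. Matches were found for 6 of the 10 members with a window that fell by at least 2-fold (*Gclm*, *Mafg*, *Me1*, *Prdx1*, *Srxn1* and *Txnrd1*), for 3 of 11 that fell by less (*G6pdx*, *Nfe2l2* and *Sod1*), for 1 of 6 that were not called (*Pgd*) and for 1 of 6 that rose (*Abcc4*); the remaining window is that of *Cbr3*. The match is found in 17.1% of tested genes with a window and in 12.4% of all windows. It is a match of letters, not evidence of binding, and the members were picked as NRF2 targets, so the shares are a description with no test. The stretches below show the matches of the members that fell, *Srxn1* aside, each lying upstream of or across a start, with the 9 matched letters in capitals, so that the shared core can be compared; all read 5′ to 3′ on the strand of the gene. Where the element lies on the opposite strand it appears as GCNNNGTCA.
Prdx1, chr4:116685416-116685524, plus strand: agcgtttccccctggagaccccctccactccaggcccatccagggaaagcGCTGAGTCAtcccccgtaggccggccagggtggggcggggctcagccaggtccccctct
Me1, chr9:86695912-86695970, minus strand: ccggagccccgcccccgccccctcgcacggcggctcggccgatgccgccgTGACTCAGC
Gclm, chr3:122245373-122245481, plus strand: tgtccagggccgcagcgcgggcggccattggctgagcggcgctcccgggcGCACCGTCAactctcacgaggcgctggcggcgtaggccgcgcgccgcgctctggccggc
Txnrd1, chr10:82859064-82859172, plus strand: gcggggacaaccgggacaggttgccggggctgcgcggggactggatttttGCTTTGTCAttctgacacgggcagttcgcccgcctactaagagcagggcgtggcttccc
Mafg, chr11:120633711-120633797, minus strand: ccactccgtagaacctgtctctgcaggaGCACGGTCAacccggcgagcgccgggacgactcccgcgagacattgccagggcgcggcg
G6pdx, chrX:74428881-74428987, minus strand: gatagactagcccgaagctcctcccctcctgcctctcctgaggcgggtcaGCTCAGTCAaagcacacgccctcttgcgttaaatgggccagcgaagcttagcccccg
Sod1, chr16:90220656-90220761, plus strand: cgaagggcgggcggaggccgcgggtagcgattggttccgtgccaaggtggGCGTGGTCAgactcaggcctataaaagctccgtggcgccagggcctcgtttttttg
Nfe2l2, chr2:75704845-75704913, minus strand: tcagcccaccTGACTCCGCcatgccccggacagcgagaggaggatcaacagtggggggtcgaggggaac

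*Prdx1* and *Me1* share the same 9 letters, TGACTCAGC, at 133 bases before the start on the opposite strand in *Prdx1* and across the start on the strand of the gene in *Me1*. *Prdx1* fell 2.03-fold and *Me1* 33.6-fold. The value of *Me1* rests on 9 reads in teNK, and the gene passed the filter on low counts through hNK alone. The sizes of change are therefore not compared. The *Srxn1* match (TGACCTAGC) lies 29 bases after the start and is not printed as a stretch. In *G6pdx* and *Sod1*, which fell by less than 2-fold, the match lies within 60 bases of the start. The windows of *Nqo1*, *Osgin1*, *Txn1* and *Sqstm1*, which also fell by at least 2-fold, hold no match, which says only that these letters are not in those windows. *Gclc* and *Hmox1*, which fell by at least 2-fold too, had no window. The core of the aryl hydrocarbon response element, GCGTG on both strands, was in the windows of 6 of the 10 members with a window that fell by at least 2-fold. It was in 10 of 11 that fell by less, in 5 of 6 not called and in 5 of 6 that rose, where 56.4% of tested genes hold it.

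The wider pathway was measured in 124 further genes, listed by role, of which 99 were tested: 43 fell (43.4%), 26 rose (26.3%) and 30 were not called. Over all tested genes 25.6% were lower and 26.4% higher, so the share that rose was near that of all genes. These lists too were chosen with earlier results of these data known. *Chac1*, *Aldh1l2* and *Slc6a9* passed the filter on low counts through hNK alone and *Cybb* through teNK alone, so their direction was set by the filter; of the 92 over the filter in all 8 libraries, 40 fell and 24 rose. Of 15 other regulators, 6 fell (40%) and 5 rose (33.3%). *Bach1*, a repressor that competes with NRF2 for small MAF proteins, fell from 105.3 ± 6.66 to 58.1 ± 4.72 CPM, and *Nfe2l1* (NRF1), a relative of NRF2, fell from 161 ± 13.99 to 91.6 ± 1.80 CPM. *Sesn2* (sestrin 2) fell from 37.1 ± 2.91 to 12.9 ± 1.84 CPM, and *Bach2*, a lymphocyte relative of *Bach1*, rose from 71.8 ± 3.74 to 88.1 ± 7.81 CPM. The other sestrin genes on the list went the other way from *Sesn2*. *Sesn1* rose from 77.8 ± 4.09 to 113 ± 6.70 CPM and *Sesn3* from 234 ± 23.9 to 308 ± 17.0 CPM. Of 23 other glutathione genes, 11 fell (47.8%) and 5 rose (21.7%). *Oplah* (5-oxoprolinase) fell from 82.3 ± 13.02 to 19.7 ± 1.59 CPM and *Slc3a2*, the partner chain of the cystine transporter, from 302 ± 9.44 to 118 ± 13.1 CPM. *Slc7a11*, the cystine transporter chain and a classical NRF2 target, was too scarce to test. It had 2, 10, 6 and 6 reads in hNK and none in teNK. Its hNK mean was 3.54 times a floor of 3 counts per teNK library, a ratio that leaves out counting error in hNK. *Chac1*, which degrades glutathione, was at 14.1, 14.5, 19.1 and 22.4 CPM in the hNK libraries, and teNK had no read of it.

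The other thioredoxin genes fell in 8 of 15 (53.3%) and rose in 1, where 25.6% of all tested genes were called lower and 26.4% higher. *Txn2* and *Txnrd3* fell from 38.7 ± 1.44 to 24.5 ± 1.22 CPM and from 13.3 ± 1.86 to 6.67 ± 0.571 CPM, and *Txndc5*, a disulfide isomerase of the endoplasmic reticulum, was the one that rose, from 62.5 ± 6.38 to 139 ± 4.96 CPM. On the list of other NADPH genes, which also holds folate enzymes, 8 of 14 fell (57.1%) and 1 rose. The 3 with the smallest adjusted p belong to folate metabolism, and NADPH supply was not measured. *Mthfd2* fell from 115 ± 16.9 to 5.80 ± 0.680 CPM and *Mthfd1l* from 93.2 ± 12.04 to 48.6 ± 2.01 CPM. *Aldh1l2* had 21, 33, 36 and 29 reads in hNK and none in teNK. Its hNK mean was 18.1 times a floor of 3 counts per teNK library, again without counting error in hNK. Of 24 other antioxidant genes and NRF2 targets, 9 fell (37.5%) and 7 rose (29.2%), shares not far from those of all tested genes, and their median log2 fold change was 0.02. *Ftl1*, the ferritin light chain, measured 471, 332, 309 and 368 CPM in hNK replicates 1 to 4 and 69.4, 60.9, 68.9 and 71 CPM in teNK replicates 1 to 4, with no overlap, and fell 5.49-fold (adjusted p = 1.71e-11); ferritin genes have many near copies, so this count is uncertain. *Slc6a9*, a glycine transporter, was 126 (95% interval 65.98 to 276) times more abundant in hNK.

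**Figure D5:**
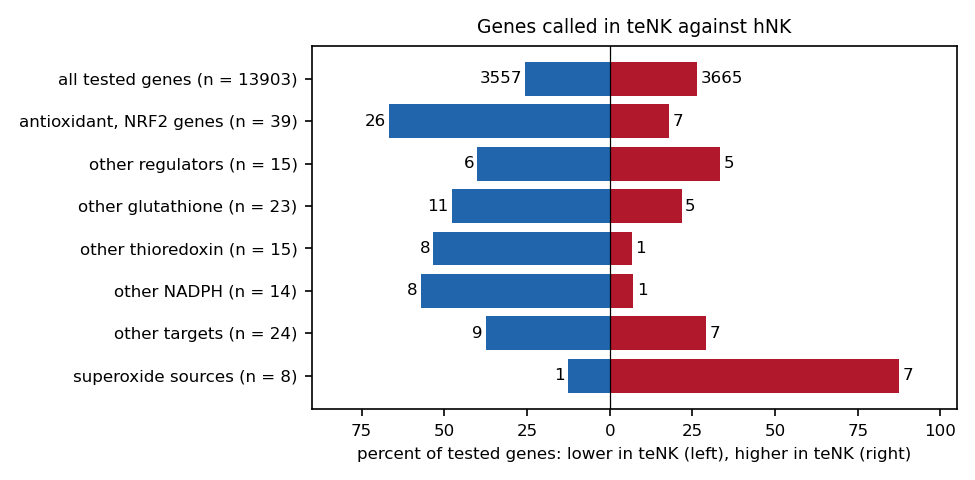
Percent of tested genes called lower (left, blue) and higher (right, red) in teNK for all tested genes, for the 39 tested antioxidant and NRF2 genes and for the 6 lists of other pathway genes; numbers at the bars are genes and n is the number tested. The antioxidant genes extend furthest to the left (26 of 39) and the superoxide sources furthest to the right (7 of 8).

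Genes of enzymes that make superoxide or hydrogen peroxide were called higher more often than lower: of 8 tested, 7 rose and 1 fell, where 26.4% of all tested genes were called higher. Without *Cybb*, which passed the filter through teNK alone, 6 of 7 rose. Like the members, this list was chosen with earlier results of these data known, so its shares are a description with no test. *Xdh*, xanthine dehydrogenase, measured 21.9, 16.4, 25.4 and 19.5 CPM in hNK replicates 1 to 4 and 307, 306, 307 and 313 CPM in teNK replicates 1 to 4. The lowest teNK library was more than 10 times the highest hNK library, and the log2 fold change was 3.91 ± 0.10 (adjusted p = 1.28e-14). *Rac2*, a small GTPase of the NADPH oxidase in blood cells, rose from 467 ± 19.6 to 700.4 ± 38.5 CPM. *Cybb*, the catalytic subunit of that oxidase, had 6 reads over the hNK libraries and 158 over teNK, and was 16.9 (95% interval 7.59 to 46.7) times higher in teNK. Phagocytes and B cells express *Cybb*. Of the 13 macrophage and monocyte genes 2 were tested, and *Cd68* was not called (4.34 CPM in hNK against 4.52 CPM in teNK) while *Lyz2* was higher. In the same teNK libraries *Lyz2*, a gene of myeloid cells, stood at 6.95 ± 2.13 CPM and *Ms4a1* (CD20), a gene of B cells, at 8.02 ± 2.16 CPM, against 0.460 and 0.419 CPM in hNK; their part in the level of *Cybb* was not tested.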

How the data were processed

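RNA of sorted, cultured splenic NK cells was sequenced in 8 libraries (TruSeq stranded mRNA kit, per the labels' protocols). The authors deposited whole-number read counts per Ensembl gene, 1 file per library. The submitters' processing notes list HISAT2 2.1.0, SAMtools, HTSeq and the GRCm38 build; no source used here gives their settings, annotation release or strand setting. The 5 summary lines stayed out of all totals; reads in no gene took 32.3% to 41.2% of each file and ambiguous reads 1.52% to 2.07%. Symbols, coordinates and exon lengths came from GENCODE M21 (GRCm38). The list of erythroid markers lost *Ahsp*, which was not matched.

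Counts were fitted in R 4.3.3 with edgeR 4.0.16: filterByExpr by group, TMM scaling, and the quasi-likelihood F test on group over 13903 genes. The SE is the log2 fold change divided by the square root of F. Near copies were found with blastn 2.17.0 (at least 95% identity over at least 100 bases). Alternatives were other scalings, DESeq2 1.42.0, voom in limma 3.58.1, other filters, equal depth, a test against 1.5-fold, a replicate block, each library left out and marker genes removed. No pair of libraries was identical, and replicate pairs differed by 3.51 to 11.3 in chi-square per degree of freedom, so all 8 were counted. A simulation with 13903 genes changed 50 genes at each of the folds that follow. The fit recovered 34% of those changed 1.25-fold, 64% of those changed 1.5-fold, 90% of those changed 2-fold and 94% of those changed 4-fold. Of its 150 calls, 9 were false. In the data 51.9% of tested genes were called, a far larger share than was changed there, so these rates may not hold for this comparison. The members and lists were chosen with earlier results of these data known. All 40 members are accounted for. Other genes were named as the 3 called with the smallest adjusted p per list, plus *Slc7a11*, *Chac1*, *Bach1*, *Bach2*, *Nfe2l1*, *Gstp2* and *Slc3a2*. *Sesn1* and *Sesn3* were named beside *Sesn2*.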

Additional observations from a re-analysis of the deposited data

Results flagged for a closer look

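In 3 of 78 groups of 4 libraries tested among the members, 1 library stood apart from the other 3 by more than Dixon's 95% critical value; chance gives about 5% of groups. *Prdx2* was 12.9 CPM in teNK replicate 4, where the other teNK libraries ranged from 11.01 to 11.24 CPM. *Prdx3* was 44.65 CPM in hNK replicate 1, below the 52.9 to 54.4 CPM of the other hNK libraries. *Gstm1* was 53.8 CPM in hNK replicate 3, below the 72.6 to 75.8 CPM of the others. All 3 genes were also called lower with each of these libraries left out.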

How the results depend on the processing

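Of 39 tested members, 35 kept their call in each of the 19 alternatives other than the test against a 1.5-fold change; the exceptions were *Cat*, *Tkt*, *Abcc4* and *Sod2*. *Sod2* was called lower without scaling factors (log2 fold change -0.23, adjusted p = 0.0245), a setting in which the median of all genes moved from -0.02 to -0.15, the members' median from -0.48 to -0.61, and all genes split into 2709 higher and 5114 lower instead of 3665 and 3557. Against a 1.5-fold change, 2 members were higher and 14 lower, other pathway genes numbered 12 and 18, and all genes 1297 and 850. With each library left out in turn, 6 to 7 members were higher and 25 to 26 lower. No member reversed direction with a call. With the replicate number as a block (replicate block), 6 members were higher and 26 lower. The deviations of same-numbered libraries from the group means correlated at 0.04, -0.11, 0.15 and 0.02 for replicates 1 to 4. Differently numbered pairs ranged from -0.18 to 0.22, and so few libraries cannot settle whether same-numbered ones were paired. Depth limits *Nqo1*, *Me1*, *Osgin1* and *Slc7a11*, which had few or no reads in teNK.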

Other observations

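Within hNK, the members that fell by at least 2-fold tended to peak in the same library. In 10 of these 12 members hNK replicate 1 was the highest of the 4 hNK libraries, and in the other 2 (*Txn1* and *Prdx1*) hNK replicate 4 was; among all 806 genes that fell by at least 2-fold, hNK replicate 1 was highest in 28.0%. *Hmox1* spanned 33.2 to 65.7 CPM across hNK and *Osgin1* 11.02 to 26.4 CPM, while over the 39 tested members the SD as a percent of the mean had a median of 9.05% over hNK and 7.995% over teNK. The same library had the highest share of reads in no gene among hNK (41.2%, the others 32.3% to 38.4%), whose part in this was not tested. Without hNK replicate 1 the counts were 26 members lower and 6 higher.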
